A study of Homo sapiens with 6 samples.

Results

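The growth factors that bind EGFR and its relatives were followed in HCC827 cells treated with an EGFR inhibitor. The set was taken by gene symbol and holds 10 of the 28395 genes in the deposited table. AREG, EREG, TGFA, HBEGF, BTC, EPGN and EGF encode the 7 ligands of EGFR itself, and NRG1, NRG2 and NRG4 encode 3 neuregulins. HCC827 is an established human lung adenocarcinoma line whose EGFR carries an activating deletion in the kinase domain, and both groups share this allele. Cells growing in RPMI medium with 10% FBS received either the vehicle DMSO or 1 μM erlotinib, a small molecule that blocks the EGFR kinase, and RNA was taken after 24 h. There were 3 DMSO libraries (1 to 3) and 3 erlotinib libraries (4 to 6, as the table numbers them). The labels do not say whether they were separate cultures, so p-values measure the spread between these samples, which may be technical. All 6 come from 1 cell line at 1 dose and 1 time. Between 20760204 and 24641819 reads were assigned to genes per library, and signal below means a gene's reads over the size factor of its library.

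Cells make the EGFR ligands as precursors that span the membrane. Metalloproteases of the ADAM family, mainly ADAM17 and ADAM10, cut the growth factor free from the cell surface, and the released ligand can act on the same cell or on its neighbours. AREG, TGFA, EPGN and EGF bind EGFR, while HBEGF, BTC and EREG also bind ERBB4. Neuregulins bind ERBB3 or ERBB4, which signal in pairs with ERBB2 or EGFR. In lung and other epithelia, ligand genes such as AREG, EREG, HBEGF and TGFA are themselves known to be switched on by signalling through EGFR and ERK, so that the receptor and its ligands form a loop.

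With erlotinib, 5 of the ligand genes fell and none rose. EREG fell 2.61-fold, AREG 2.39-fold, TGFA 2.38-fold, the neuregulin gene NRG1 2.05-fold and BTC 1.53-fold. HBEGF kept a similar mean in both groups with a wide interval, EPGN, EGF and NRG4 had few reads, and NRG2 was listed at 0 in all 6 libraries. The test was limma on log2(signal + 1) with Benjamini-Hochberg adjustment over 14215 genes, those whose signal averaged at least 10 across libraries, and 7 of the 10 ligands passed that filter. Each of the 7 also had a mean of at least 10 within both groups. In that fit 35.4% of all genes tested were lower and 35.3% higher at an adjusted p under 0.05, against 5 and 0 of the 7 ligands. These shares depend on the scaling, since dividing by the total count gave 3955 lower and 6156 higher genes in place of 5031 and 5012, with the same 5 and 0 ligands. The ligands lower by at least 1 log2 unit were 4 of 7, beside 10.8% of all genes tested. The median log2 fold change of the 7 was -1.04 against 0.02 for all genes tested. The ligands were chosen with earlier results of these data known, so these contrasts with all genes are a description. From bulk RNA, fewer cells that express a gene and less RNA per cell cannot be told apart.

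**Figure D1:**
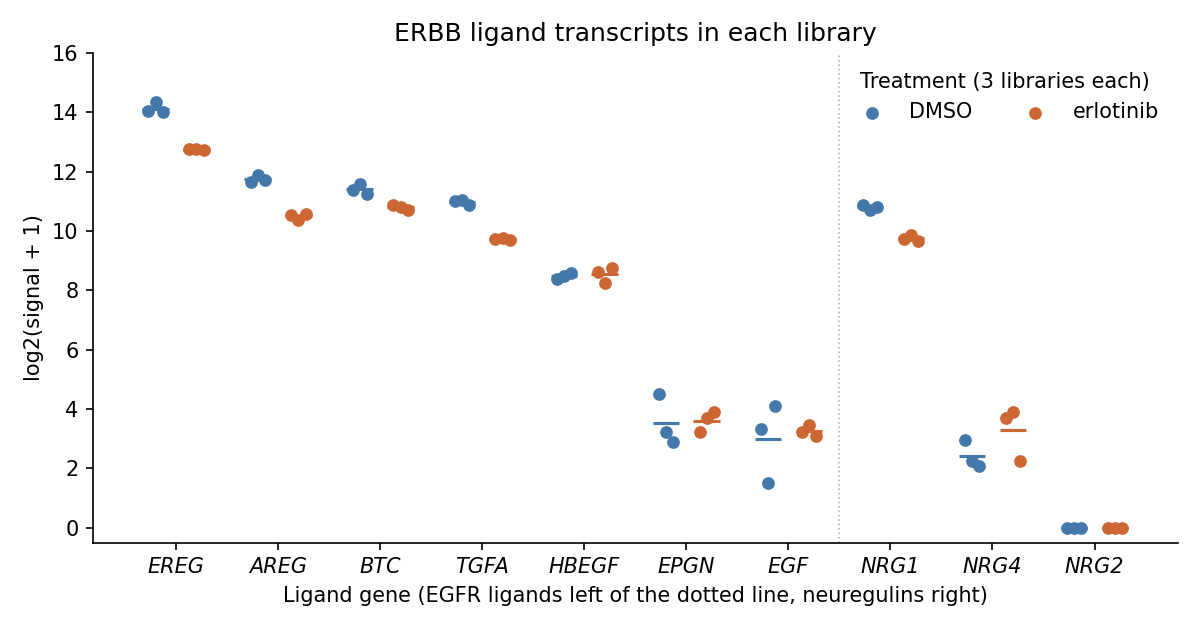
Signal of the 10 ligand genes in each library on a log2(signal + 1) axis, with 1 point per library (blue DMSO, orange erlotinib) and a short line at the group mean. EREG, AREG, BTC, TGFA and NRG1 have every erlotinib point below every DMSO point, while the points of HBEGF, EPGN, EGF and NRG4 overlap and NRG2 lies at 0.

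The sequence before the start is shown for 4 of the 5 ligand genes that fell, of which AREG, EREG and BTC lie close together on chromosome 4. NRG1, which also fell, is missing because no start site in the RefSeq promoter table (GRCh38.p14) was matched to it. That table matched 9 of the 10 ligands with 11 start sites, and the 250 bases before each start were searched. The motifs were the AP-1 site TGANTCA, the cyclic AMP response element (CRE) TGACGTCA, the TEAD site GGAATG and the SP1 site GGGCGG, all on both strands, the TATA box TATAAA on the forward strand, and the CArG box that SRF binds. Each runs 5′ to 3′ on the gene's own strand, with every match in capitals. AREG is taken from chr4:74444886-74445135 (plus strand), EREG from chr4:74364895-74365144 (plus strand), TGFA, at the first of its start sites in the table, from chr2:70553827-70554076 (minus strand) and BTC from chr4:74794524-74794773 (minus strand).
AREG: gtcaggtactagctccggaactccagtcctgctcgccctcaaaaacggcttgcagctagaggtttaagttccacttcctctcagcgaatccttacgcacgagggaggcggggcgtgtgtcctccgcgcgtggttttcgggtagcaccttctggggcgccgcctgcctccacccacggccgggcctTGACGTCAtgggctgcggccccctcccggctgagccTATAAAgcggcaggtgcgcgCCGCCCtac
EREG: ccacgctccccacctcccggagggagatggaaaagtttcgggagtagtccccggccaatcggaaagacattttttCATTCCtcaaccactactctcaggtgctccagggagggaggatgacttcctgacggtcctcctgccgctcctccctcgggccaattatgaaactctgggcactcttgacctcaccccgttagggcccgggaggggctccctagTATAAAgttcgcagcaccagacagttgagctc
TGFA: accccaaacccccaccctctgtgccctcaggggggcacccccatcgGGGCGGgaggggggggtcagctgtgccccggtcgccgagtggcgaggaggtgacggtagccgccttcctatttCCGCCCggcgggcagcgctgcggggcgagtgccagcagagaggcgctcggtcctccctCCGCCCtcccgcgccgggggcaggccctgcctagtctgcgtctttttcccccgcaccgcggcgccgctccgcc
BTC: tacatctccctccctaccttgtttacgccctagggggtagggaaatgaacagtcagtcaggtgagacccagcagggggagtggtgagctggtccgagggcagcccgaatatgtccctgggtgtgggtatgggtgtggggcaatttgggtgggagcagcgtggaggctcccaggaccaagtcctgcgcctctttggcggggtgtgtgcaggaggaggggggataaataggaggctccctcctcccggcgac
AREG holds the full CRE that begins 65 bases before the start, a TATA box at 29 bases and an SP1 site at 9 bases. EREG holds a TEAD site at 175 bases and a TATA box at 32 bases. TGFA has SP1 sites at 204, 131 and 73 bases and no TATA box at this start, while the window of its second start site in the table holds none of the motifs, and none of the motifs searched is in the BTC window. Among all 35116 promoter windows of this length, 1.65% hold the CRE, 6.8% the TATA box, 11.9% the TEAD site, 42.6% the SP1 site, 6.57% the AP-1 site and 1.16% the CArG box. A match is a description of letters and does not show that a factor binds there. HBEGF has 5 matches to the SP1 site in its window and none to the others. EPGN has a TATA box at 29 bases, and in EGF an AP-1 match at 17 bases overlaps a TEAD match at 12 bases. NRG4 has a TEAD match at 209 bases and a TATA box at 8 bases, and both NRG2 windows hold 1 SP1 match.

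EREG encodes epiregulin and had the highest level of all the ligands, also per kilobase of exon. Its gene (Entrez 2069) spans 74365145 to 74388749 on chromosome 4 of GRCh38. EREG signal was 16717, 20689 and 16354 in the DMSO libraries and 7004, 6882 and 6742 in the erlotinib libraries. All erlotinib libraries were thus well below all DMSO libraries, and they lay closer to each other than the DMSO libraries did. The mean went from 17920.0 ± 2405 (SD, n = 3) to 6876 ± 131 (SD, n = 3), which left 38.4% of the DMSO level. The log2 fold change of EREG was -1.37 (SE 0.08, 95% interval -1.53 to -1.21, limma adjusted p = 1.57e-12). Of all genes tested, 6.11% had a more negative change.

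AREG encodes amphiregulin, an EGFR ligand that carries a heparin-binding stretch. Its gene (Entrez 374) lies downstream of EREG at 74445136 to 74455005. AREG signal was 3192, 3779 and 3396 with DMSO and 1496, 1336 and 1509.9 with erlotinib, so the groups were again separate. The mean went from 3456 ± 298 to 1447 ± 96.9 (SD, n = 3 each), with 41.9% left. The log2 fold change of AREG was -1.25 (SE 0.08, 95% interval -1.42 to -1.09, limma adjusted p = 1.16e-11).

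TGFA encodes transforming growth factor alpha, which binds EGFR only. Its gene (Entrez 7039) lies on chromosome 2 at 70447284 to 70553826, away from the cluster. TGFA signal was 2054, 2128 and 1862 with DMSO and 839.8, 874 and 828 with erlotinib. No erlotinib library reached the level of any DMSO library. The mean of TGFA went from 2015 ± 137 to 847 ± 24.2 (SD, n = 3 each), with 42.0% left, and the log2 fold change was -1.25 (SE 0.08, 95% interval -1.42 to -1.08, limma adjusted p = 1.69e-11).

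BTC encodes betacellulin, a ligand of EGFR and ERBB4, and is the last ligand gene of the chromosome 4 cluster (Entrez 685, 74744759 to 74794523). BTC signal was 2679, 3057 and 2407 with DMSO and 1860.4, 1793 and 1687 with erlotinib. The groups did not overlap, but the gap between them was narrower than for EREG, AREG and TGFA. BTC kept 65.6% of its DMSO mean (2715 ± 326 to 1780.0 ± 87.5, SD, n = 3 each), with a log2 fold change of -0.60 (SE 0.08, 95% interval -0.78 to -0.43, limma adjusted p = 1.73e-06). A larger fall than that of BTC was seen in 22.3% of the genes tested. DMSO library 2 had the highest value of EREG, AREG, TGFA and BTC, and across all genes it differed most from DMSO library 1 (chi-square over its degrees of freedom 22.9). Without it the log2 fold changes were -1.27 for EREG, -1.19 for AREG, -1.21 for TGFA and -0.51 for BTC, all past the threshold.

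NRG1 was the abundant neuregulin. It encodes a family of isoforms that bind ERBB3 and ERBB4, and the table gives 1 value for the gene, so isoforms were not separated. NRG1 signal (Entrez 3084, chromosome 8, 31639245 to 32774046) was 1881, 1664 and 1784 with DMSO and 857, 933 and 806 with erlotinib. Every erlotinib library was below every DMSO library. The mean of NRG1 went from 1776 ± 108 to 866 ± 64.2 (SD, n = 3 each), with 48.7% left, and the log2 fold change was -1.04 (SE 0.08, 95% interval -1.21 to -0.86, limma adjusted p = 6.74e-10). With these 5 ligands, 5 of the 7 tested had all erlotinib libraries below all DMSO libraries, beside 36.9% of all genes tested, and 0 of 7 had all of them above, beside 36.7%.

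HBEGF, which encodes a heparin-binding EGFR ligand that is also the diphtheria toxin receptor in its membrane form, did not pass the test in either direction. HBEGF (Entrez 1839, chromosome 5, 140332843 to 140346603) had a signal of 335, 359 and 379 with DMSO and 388, 304 and 429.7 with erlotinib. The lowest and the highest of the 6 values were both erlotinib libraries. The log2 fold change of HBEGF was 0.05 (SE 0.13, 95% interval -0.22 to 0.33, limma adjusted p = 0.739). That interval does not reach the change of any of the 5 ligands that fell. Without erlotinib library 6 the sign turned, at -0.06 (adjusted p = 0.755).

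EPGN, EGF and NRG4 had so few reads that counting error was wide. EPGN (Entrez 255324, 74308470 to 74316789 on chromosome 4), which encodes epigen, had 34 reads over the DMSO libraries (95% Poisson interval 23.5 to 47.5) and 36 over the erlotinib libraries (25.2 to 49.8). Its signal was 21.6, 8.36 and 6.42 against 8.30, 11.9 and 14.04, so the groups overlapped. The log2 fold change of EPGN was 0.07 (SE 0.59, 95% interval -1.16 to 1.29, limma adjusted p = 0.923), and its sign turned in 5 of the alternatives run. EGF (Entrez 1950, 109912883 to 110013766 on chromosome 4), the ligand after which the family is named, had 25 reads (16.2 to 36.9) with DMSO and 27 (17.8 to 39.3) with erlotinib. NRG4 (Entrez 145957, 75935393 to 76060240 on chromosome 15), a ligand of ERBB4, had 13 reads (6.9 to 22.2) and 31 (21.1 to 44). NRG4 shares part of its span with FBXO22, a gene with a mean signal of 504, and with TMEM266, with one of 8.22, and the strand that was counted is not given in the sources used here, so reads of such neighbours cannot be told apart from its own. NRG2 (Entrez 9542, 139846781 to 140043299 on chromosome 5), and outside the set NRG3, had 0 reads in every library, and the upper end of the same Poisson interval is 3.7 reads among 66672786 with DMSO and among 64382606 with erlotinib. The one-sided limit that a count of 0 allows is 3 reads. These intervals and limits cover counting error only.

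**Figure D2:**
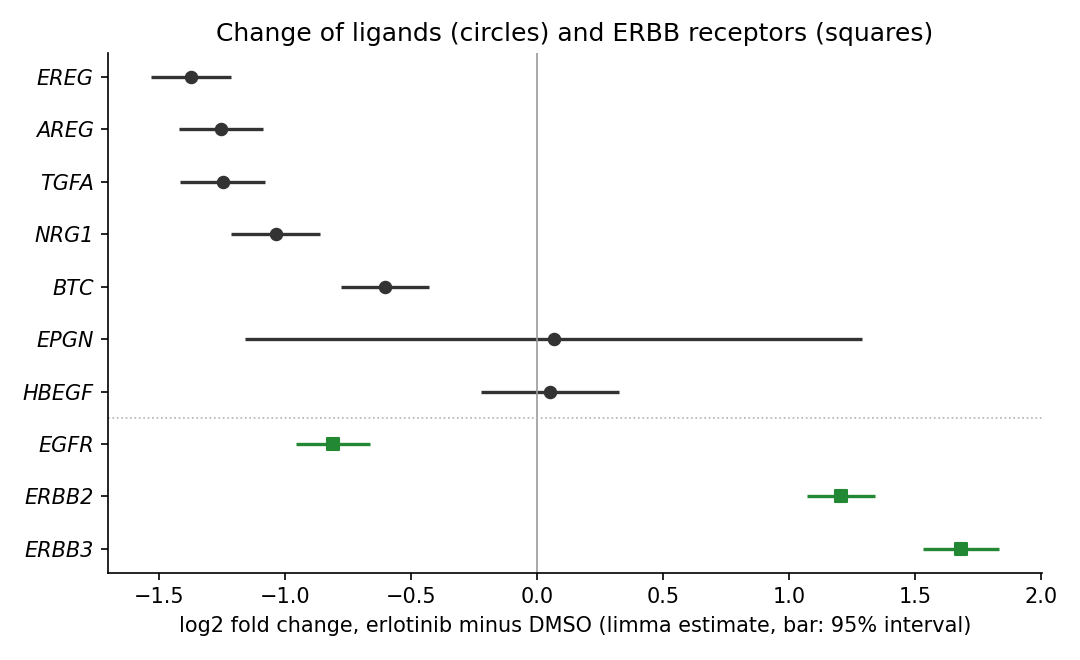
Log2 fold change of erlotinib minus DMSO for the 7 ligands tested (black circles) and 3 ERBB receptors (green squares), with bars for the 95% interval from limma. EREG, AREG, TGFA, NRG1 and BTC lie left of 0, the intervals of EPGN and HBEGF span 0, and ERBB2 and ERBB3 lie right of 0 while EGFR lies left.

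The sizes of the falls were set against each other as the change in the log2 ratio of each pair among the 6 ligands with more than a few reads, a comparison chosen after their values were seen. An exact two-sided permutation test on 3 against 3 libraries cannot go below p = 0.1, and over the 15 pairs the adjusted values ran from 0.136 to 1.0. No pair could pass 0.05, so the values are a description and no difference between ligands is shown by this test. The ratio of EREG to BTC changed by -0.77 (SE 0.05), that of AREG to BTC by -0.65 (SE 0.11) and that of EREG to HBEGF by -1.43 (SE 0.20). Each of these was at the smallest p the test allows. The ratio of AREG to TGFA changed by -0.01 (SE 0.11, exact permutation p = 1.0) and that of AREG to EREG by 0.12 (SE 0.08, exact permutation p = 0.2). The ratio of EREG to TGFA changed by -0.13 (SE 0.08, exact permutation p = 0.3) and that of AREG to NRG1 by -0.22 (SE 0.17, exact permutation p = 0.4). In these 4 pairs the ratios of the groups overlapped.

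Per kilobase of exon, a rough scale for setting genes side by side, the order in DMSO was EREG, AREG, BTC, TGFA, HBEGF and NRG1. The 4 genes with few or no reads came last. Reads were aligned without being split across introns, and the effect of this on levels per kb was not tested. The level of EREG was 3137 ± 421 signal per kb in DMSO and 1204 ± 22.9 in erlotinib (SD, n = 3 each), above 98.7% and 96.3% of the genes tested that have an exon length. AREG stood at 2105 ± 181 and 881 ± 59.0 per kb, above 97.7% and 94.0% of these genes, and BTC at 1023 ± 123 and 671 ± 33.0. TGFA moved from 409.8 ± 27.9 to 172 ± 4.92 per kb, HBEGF from 120 ± 7.42 to 125 ± 21.4, and NRG1 from 83.1 ± 5.08 to 40.5 ± 3.00. Among these 6, neighbours in the order did not overlap in either group. Lower down, EGF overlapped EPGN and NRG4 with DMSO, and NRG4 overlapped EPGN and EGF with erlotinib. With the longest transcript as the length, in place of all exons together, HBEGF (152 ± 9.40) and NRG1 (142 ± 8.67) overlapped in DMSO.

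The summed level of the 10 ligands was 6507, 7710 and 6432 per kb with DMSO and 3185, 3025 and 3091 with erlotinib, so that 45.0% was left. EREG and AREG together made up 76.1% ± 1.10 of the sum with DMSO and 67.3% ± 0.617 with erlotinib. These 2 genes dominated the ligand mRNA in all 6 libraries. The share of BTC was 15.5%, 14.9% and 14.1% with DMSO and 22.0%, 22.3% and 20.6% with erlotinib. HBEGF held 1.75% ± 0.207 and 4.03% ± 0.645. TGFA and NRG1 held similar shares in both groups, at 5.97% ± 0.410 and 5.56% ± 0.277 for TGFA and 1.22% ± 0.184 and 1.31% ± 0.120 for NRG1. The summed EGFR ligands kept 45.0% and the neuregulins 50.5% of their DMSO level, and the latter sum is nearly all NRG1.

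**Figure D3:**
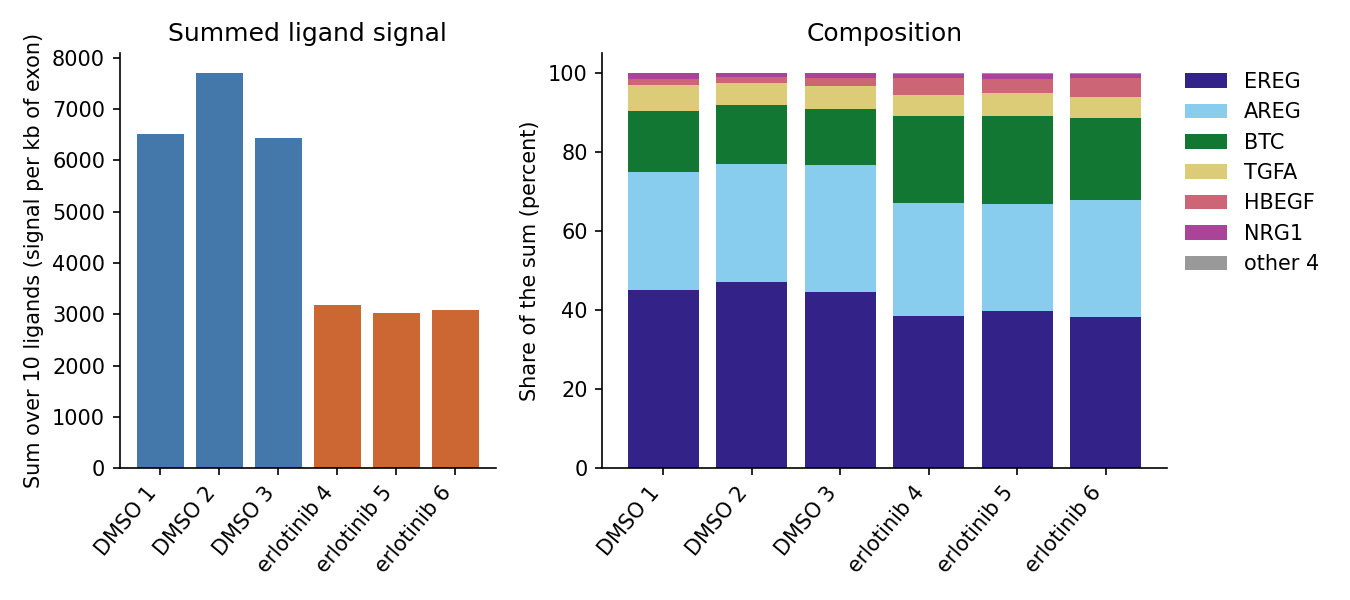
Left, bars of the summed signal per kb of exon of the 10 ligands in each library, from 0; right, the percent of that sum held by each ligand. The erlotinib bars lie between 3025 and 3185 and the DMSO bars between 6432 and 7710, and BTC and HBEGF take larger shares in the erlotinib libraries.

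The receptors moved apart from each other. EGFR, the target of erlotinib, had a signal of 77915, 82437 and 78583 with DMSO and 42831, 43954 and 49829.9 with erlotinib, a log2 fold change of -0.81 (SE 0.07, limma adjusted p = 2.36e-09). Per kilobase of exon, EGFR had the highest level of the 4 receptors in every library. ERBB2, the partner receptor that binds no ligand of its own, rose from 2294, 2242 and 2402 to 5336, 5330.0 and 5344, a log2 fold change of 1.21 (SE 0.07, limma adjusted p = 8.67e-13). ERBB3, a neuregulin receptor with little kinase activity, rose from 1647, 1946 and 1755 to 5741, 5539 and 5889, a log2 fold change of 1.68 (SE 0.07, limma adjusted p = 2.52e-14). NRG1 and its receptor gene ERBB3 thus differed in direction. ERBB4 was under the filter, with a signal of 0, 1.86 and 0 against 7.38, 9.90 and 11.2. Its calls as higher, with the filter dropped and with DESeq2, rested on the erlotinib libraries where it is high and on 2 reads in all with DMSO. ERBB4 is therefore given as values without a test or a fold.

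Genes for releasing ligands from the membrane were mixed. Of 14 listed, 12 were tested, 2 were lower, 4 higher and 6 neither, with a median of 0.06. That is 16.7% lower and 33.3% higher, beside 35.4% and 35.3% of all genes tested, so the share that rose was near the background. ADAM17 had a signal of 1815, 1811 and 1723 with DMSO and 2076, 1986 and 1882 with erlotinib, a log2 fold change of 0.15 (SE 0.07, limma adjusted p = 0.0707). ADAM10 stood at 0.14 (SE 0.07, adjusted p = 0.0939). These are the main sheddases, and neither passed the threshold, although ADAM17 passed it with edgeR (0.17, adjusted p = 0.0419). RHBDL2, a rhomboid protease of the cell surface, rose from 127, 45.5 and 76.0 to 340.5, 352 and 336 (log2 fold change 2.16, SE 0.24, limma adjusted p = 1.02e-07). RHBDF1 and RHBDF2 encode iRhoms, which carry ADAM17 to the surface, and they differed in direction, at 1.36 (SE 0.16, adjusted p = 1.96e-07) and -0.58 (SE 0.10, adjusted p = 1.55e-05). ADAM12, which can cut HBEGF, fell from 87.3, 78.9 and 69.6 to 39.7, 40.6 and 29.9 (log2 fold change -1.08, SE 0.26, limma adjusted p = 0.00106). BACE1 and ADAM8 were also higher, at 0.58 (SE 0.07, limma adjusted p = 3.94e-07) and 0.55 (SE 0.21, limma adjusted p = 0.0237). Of all genes tested, 17.0% were higher by at least 1 log2 unit, against 2 of 12 on this list.

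Of 10 listed genes that carry ligands through the secretory pathway or hold them at the surface, 9 were tested, 4 were lower and 5 higher, all by less than 1 log2 unit. These are 44.4% and 55.6%, beside 35.4% and 35.3% of all genes tested. Among the lower genes, SDC1 had groups that overlapped (log2 fold change -0.16, limma adjusted p = 0.045). Its call was lost with total-count scaling, with edgeR, with the filter dropped and at an adjusted p under 0.01. The call was also lost when any single library other than DMSO library 2 was left out, and each of these settings left 3 lower. SDC4, a heparan sulfate proteoglycan of the cell surface, had the most signal of the list averaged over all libraries, although TMED2 had more in every DMSO library. SDC4 rose from 11347, 11804 and 11169 to 17260.3, 18217 and 17749.8 (log2 fold change 0.63, SE 0.06, limma adjusted p = 8.70e-09). TMED2, a cargo receptor of the early secretory pathway, fell by 0.58 on the log2 scale (SE 0.06, adjusted p = 5.09e-08). CNIH1, a cornichon that assists export of TGFA from the endoplasmic reticulum, also fell by 0.58 (SE 0.10, adjusted p = 1.91e-05). CD9, a tetraspanin that associates with the HBEGF precursor, rose from 3120, 4014 and 3338 to 6080.4, 6064 and 6251 (log2 fold change 0.82, SE 0.08, limma adjusted p = 8.81e-09). NKD2, which escorts TGFA to the membrane, was listed at 0, and its sequence is also on 1 alternate contig, where uniquely mapped reads can be lost.

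Genes that restrain ERBB receptors were 4 lower, 5 higher and 2 neither among 11 tested. These are 36.4% and 45.5%, near the 35.4% lower and 35.3% higher of all genes tested. ERRFI1, an inhibitor that binds the EGFR kinase domain and is induced by its signalling, fell from 18267, 20383 and 17972 to 8669.8, 8392 and 8841, a log2 fold change of -1.13 (SE 0.07, limma adjusted p = 2.69e-12). Its groups did not overlap. CBLB, a ubiquitin ligase, rose from 139, 172 and 166 to 537, 526 and 447 (log2 fold change 1.66, SE 0.13, limma adjusted p = 7.18e-10). LRIG1, a membrane protein that lowers receptor levels, rose by 0.85 (SE 0.29, limma adjusted p = 0.0133), a call lost without erlotinib library 4 (0.73, adjusted p = 0.0708).

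The output genes of the ERK pathway, which lies downstream of EGFR, were nearly all lower. Of 16 listed, 15 were tested and 14 were lower, 13 of them by at least 1 log2 unit, with a median of -2.35 beside -1.04 for the ligands. Of all genes tested, 35.4% were lower and 10.8% were lower by at least 1 log2 unit. The list was chosen with earlier results of these data known, so this contrast is a description. ETV1, ETV4 and ETV5, ETS transcription factors, had log2 fold changes of -5.04, -3.67 and -4.38. ETV1 had 5, 16 and 19 reads with erlotinib. Its change ran from -5.36 without erlotinib library 6 to -4.22 with a pseudocount of 10. The ERK phosphatase gene DUSP6 stood at -4.33, DUSP5 at -2.12 and DUSP4 at -1.64, and the feedback inhibitor genes SPRY4, SPRED2 and SPRED1 stood at -3.95, -2.35 and -1.35. FOSL1, an AP-1 subunit, fell by 4.15 on the log2 scale, from 14117, 17015 and 16322 to 867, 891 and 909. CCND1, EGR1 and PHLDA1 stood at -3.23, -2.06 and -1.84. The adjusted p of these 13 genes in limma ran up to 4.64e-11. SPRY2 fell by 0.25 (adjusted p = 0.035), SPRY1 stood at -0.11 (adjusted p = 0.475), and IER3, whose sequence is also on 5 alternate contigs, was near 0 and under the filter. The call of SPRY2 was lost with total-count scaling, with DESeq2 and at an adjusted p under 0.01. It was also lost without DMSO library 1, erlotinib library 4 or erlotinib library 6, and each of these settings left 13 genes of the list lower. DUSP6, FOSL1, EGR1, CCND1 and, among the ligands, AREG were also named by the study from these libraries, so their direction is not independent evidence. The study listed them as genes that YAP and TAZ are known to regulate, so the ERK label is only that of the list used here.

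**Figure D4:**
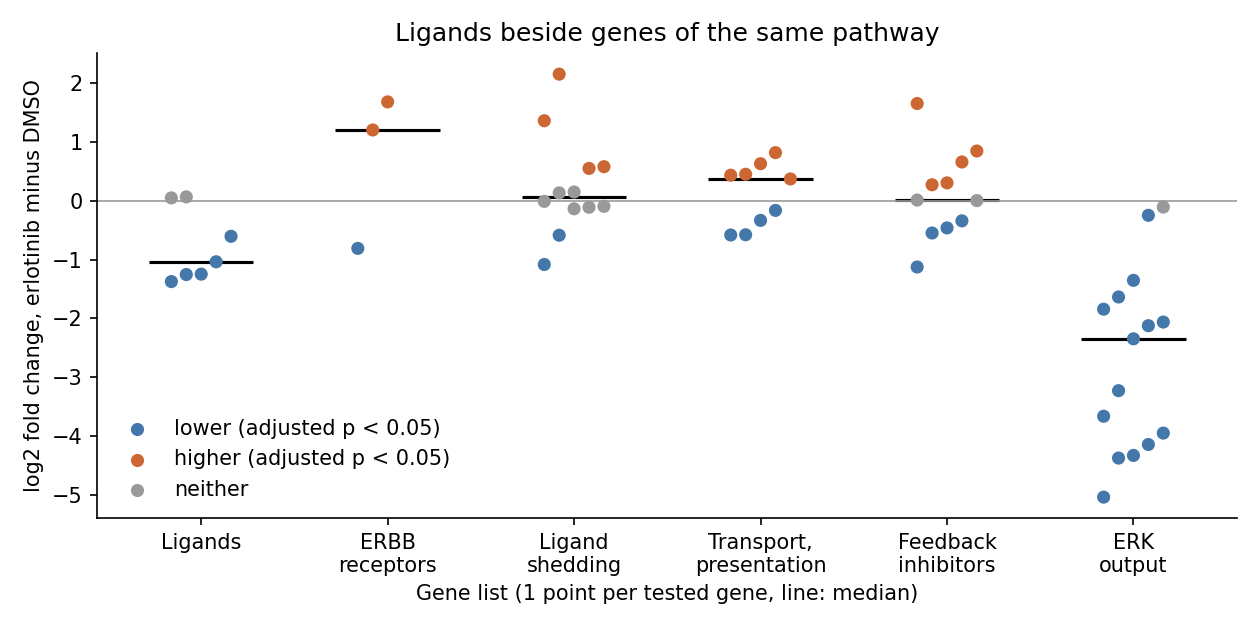
Log2 fold change of erlotinib minus DMSO for each tested gene of 6 lists, with 1 point per gene, a black line at the list's median, and colours for lower (blue), higher (orange) or neither (grey) at an adjusted p under 0.05. The ligands have a median of -1.04, the ERK output genes one of -2.35, and the other lists hold points on both sides of 0.

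EPGN, EREG, AREG and BTC lie within 486 kb on chromosome 4, and none of the tested genes around them was lower. Within 500 kb on either side the table holds 12 other genes, of which 7 were tested. CXCL6 and PARM1 passed the filter only through the erlotinib libraries, where they are high, so they are given as values without a test. Of the other 5, which averaged at least 10 in both groups, 4 were higher and 1 was neither, beside 35.3% higher and 35.4% lower of all genes tested. CXCL1, a chemokine that attracts neutrophils, rose from 124, 122 and 97.4 to 603, 709 and 663, a log2 fold change of 2.52 (SE 0.14, limma adjusted p = 1.15e-12). The 4 higher genes all encode chemokines, with CXCL2 at 1.64 (adjusted p = 2.64e-08), CXCL3 at 1.39 (adjusted p = 0.000122) and CXCL5 at 0.79 (adjusted p = 4.86e-08). CXCL6, also a chemokine gene, had 2, 15 and 4 reads with DMSO and 23, 25 and 24 with erlotinib. CXCL1, CXCL2 and CXCL3 are close copies of each other, so the division of reads among them is uncertain. CXCL5 signal was 2759, 3284 and 2739 with DMSO and 4568, 5710.1 and 4911 with erlotinib, without overlap. MTHFD2L, an enzyme gene of mitochondrial folate metabolism that lies next to EPGN, stood at -0.26 (SE 0.18, adjusted p = 0.197). PARM1, beyond BTC, went from 6.81, 0 and 4.28 to 69.2, 60.4 and 73.9. With so few DMSO reads, the fitted change of PARM1 depended on the pseudocount, from 2.54 with 10 to 5.55 with 0.1, and that of CXCL6 ran from 1.02 with a pseudocount of 10 to 2.52 without DMSO library 2. The other 5 neighbours had 0 reads in all libraries.

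**Figure D5:**
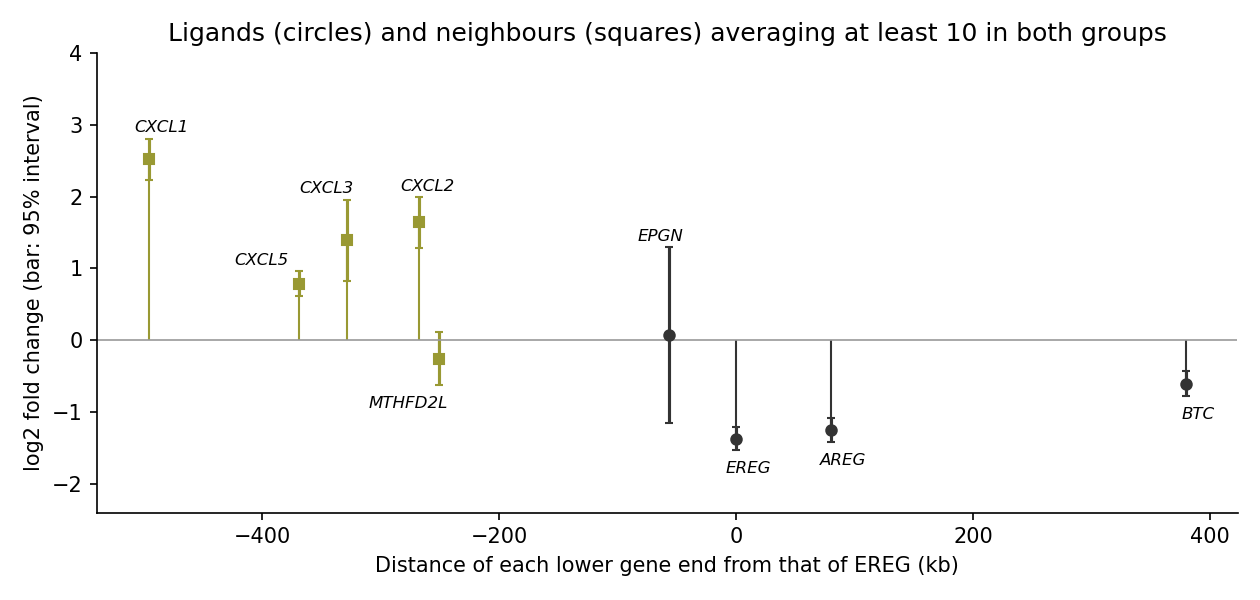
Log2 fold change with its 95% interval for the 4 ligand genes (black circles) and the 5 neighbours that averaged at least 10 in both groups (olive squares), placed by the distance in kb of each gene's end with the lower coordinate from that of EREG. EREG, AREG and BTC lie below 0, EPGN spans 0, and the 4 chemokine genes on the left lie above 0.

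The libraries carried the marks of an epithelial line. All 8 epithelial markers passed the filter, KRT7 had the most signal, and EPCAM was 10104, 9813 and 9638 with DMSO and 9802, 9268 and 9386 with erlotinib (log2 fold change -0.05, limma adjusted p = 0.429). Summed signal of the 8 was 290718, 258517 and 281155 with DMSO and 198679, 202149 and 204110.3 with erlotinib, 4 of the 8 being lower and 2, NKX2-1 and NAPSA of the lung lineage, higher, beside 35.4% lower and 35.3% higher of all genes tested. Of 8 fibroblast markers, 7 were under the filter and FAP was listed at 0. Their sum, which was mostly COL1A1, went from 73.7, 75.2 and 109 to 260.2, 223 and 217. The 8 leukocyte markers summed to 2910, 2919 and 3294 with DMSO and 3330.4, 3667 and 3569 with erlotinib, nearly all of it CD68, a lysosomal protein that epithelial cells also make, with 6 under the filter and MS4A1 at 0. The 6 endothelial markers summed to 34.0, 15.8 and 24.6 and to 58.1, 46.5 and 48.7, with VWF the most abundant over all libraries, 4 under the filter and CLDN5 at 0. The part of these shifts in the ligand values was not tested.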

How the data were processed

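RNA-seq of poly(A)-enriched RNA from HCC827 cells was analysed in 3 DMSO and 3 erlotinib libraries. Reads from both ends of each fragment were aligned by the authors to GRCh38 in Bowtie2 2.3.4, which does not split reads across introns, and assigned those with a unique position to genes in featureCounts 1.6.3, and their processing notes also name DESeq2 1.18.1. The authors deposited signal, each library's reads over a size factor. Multiplying back gave whole reads for 100% of values (tolerance 0.01), and the factors equalled those of DESeq2 on these reads. The table is described as counts, and the unit found decided the test. Depth was 20760204 to 24641819 reads per library. Replicates of a group differed by more than counting noise (chi-square over its degrees of freedom 4.05 to 22.9).

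limma was run with a variance trend on log2(signal + 1), two-sided, on genes whose signal averaged at least 10, with Benjamini-Hochberg adjustment and a threshold of 0.05. All 475 genes without a symbol were kept. The script was run on simulated data in which 200 genes changed, far fewer than were called here, so it does not check calls on that scale. Alternatives were edgeR and DESeq2 on recovered reads, TMM factors, total-count scaling, 2 other filters, pseudocounts of 0.1 and 10, a threshold of 0.01, each library left out in turn and longest-transcript lengths. Exon lengths came from GENCODE 44 (96.9% of tested genes) and positions from RefSeq on GRCh38.p14 (99.2%). Copies on 261 alternate contigs were searched with minimap2 (at least 90% aligned, at least 97% identity), and none of the ligands had one.

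The members and lists were chosen with earlier results of these data known. Named by rule were the ligands, NRG3, the receptors, list members past the threshold by at least 1 log2 unit or otherwise the most abundant, and tested neighbours. ADAM10, ADAM17, ADAM8, BACE1, RHBDF2, TMED2, CNIH1, CD9, SDC1, NKD2, LRIG1, SPRY1, SPRY2, IER3 and the markers were named after their values were seen. Python 3.11.15 (pandas 2.3.3, matplotlib 3.10.9), minimap2 2.31-r1302 and R 4.3.3 were used, with the R packages DESeq2 1.42.0, edgeR 4.0.16 and limma 3.58.1.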

Additional observations from a re-analysis of the deposited data

How the results depend on the processing

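The 5 ligands that fell kept their direction and their side of the threshold in all 15 alternatives, with log2 fold changes of -1.44 to -1.19 for EREG, -1.31 to -1.07 for AREG, -1.30 to -1.07 for TGFA, -1.09 to -0.86 for NRG1 and -0.69 to -0.42 for BTC. Their highest adjusted p was 0.000178, for BTC. Scaling to the total count gave the smallest falls and moved the median of all genes tested from 0.02 to 0.19 and their split from 5031 lower and 5012 higher to 3955 and 6156. HBEGF turned to -0.056 without erlotinib library 6. EPGN turned to -0.047 with edgeR and -0.077 with DESeq2, and ran from -0.26 to 0.26 when single libraries were left out; the cause was not tested. A minimum of 10 reads in every library left EPGN untested, as did leaving out DMSO library 1, which holds 19 of its 34 DMSO reads. At an adjusted p under 0.01, 3 feedback inhibitors were higher in place of 5. There were 4 with DESeq2 and when any single library other than DMSO library 2 was left out. Of the shedding genes, 3 were higher in place of 4 at that threshold and without erlotinib library 5 or 6. There were 5 with edgeR and without DMSO library 2, and 6 with total-count scaling. Without DMSO library 2 or 3, 3 shedding genes were lower in place of 2. Of 43 genes followed, 38 kept direction and call in every alternative that tested them. ADAM17 was also called with total-count scaling (0.33) and without DMSO library 2 (0.16), and ADAM10 likewise (0.32 and 0.21). With the longest transcript as length, the DMSO shares of AREG, BTC and NRG1 were 33.0%, 12.0% and 1.69%. No paired analysis was possible because the erlotinib libraries of the table do not carry the replicate numbers of the labels.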

Other observations

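EGF and NRG4, under the filter on low signal, were testable in a few alternatives, and neither passed the threshold in any of them. With the filter dropped, limma gave log2 fold changes of 0.27 for EGF (adjusted p = 0.74) and 0.85 for NRG4 (adjusted p = 0.26). DESeq2 gave -0.06 for EGF (adjusted p = 0.961) and 1.11 for NRG4 (adjusted p = 0.321), and without DMSO library 2 limma gave -0.46 for EGF (adjusted p = 0.521). NRG4 reads ranged from 3 to 6 per DMSO library and from 4 to 14 per erlotinib library. Of the genes in the table that overlap the span of TGFA, NRG1 or EGF in the annotation, TGFA-IT1, NRG1-IT1, NRG1-IT3 and RNU6-35P were listed at 0 in all libraries.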
